A study of Ascodesmis nigricans with 6 samples.

Results

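The 100 genes described here had their highest level in vegetative mycelium of the cup fungus Ascodesmis nigricans, a lower level in sexual mycelium and a much lower one in protoapothecia, the young fruiting bodies. They are 100 of 9622 gene models and were chosen by their own read counts. The measure was CPM, the raw count of a gene divided by the total of its library and multiplied by 1000000. Both vegetative libraries had to be at 20 CPM or more, and the lower of them had to be at least 1.5 but under 3 times the higher sexual library. The lower sexual library had to be at least 3 times the higher protoapothecia library, which itself had to be over 5% of the lowest mycelium library. All 3 contrasts between the tissues went into this choice, so the levels and ratios below are a description, with no test, and the order of the tissues is not a finding.

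RNA was sequenced from 2 protoapothecia libraries, 2 sexual libraries and 2 vegetative libraries of strain CBS 389.68. All cultures grew for 3 days at 25 °C on slides covered with rabbit food agar and were fixed in ethanol. Per the labels, the protoapothecia were cut out by laser microdissection, whereas the sexual and the vegetative libraries come from total mycelium, so tissue and way of collection cannot be told apart. In such bulk samples, fewer cells that carry a transcript and less of it per cell cannot be told apart either. The protocol text, shared by all 6 libraries, states linear amplification of the RNA, and the replicates are labelled as independent biological ones.

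Vegetative mycelium of filamentous ascomycetes spreads through the substrate and takes up nutrients. In the sexual phase such mycelium forms ascogonia and enclosing hyphae, which develop into young fruiting bodies and later carry the asci with the sexual spores. In the Pezizomycetes, the class of Ascodesmis, the mature fruiting body is an open apothecium. The deposited table pairs its protein identifiers with neither gene names nor products, and no annotation or sequence was used here. The genes are therefore given by identifier and mRNA length, without functions, positions or sequences, gene lists by function could not be matched, and the tissues could not be checked against marker genes.

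The library totals ran from 11589777 to 12835772 counts. None of the 100 genes was at 0 counts in any library. Their counts per gene were at least 251 in the vegetative libraries and at least 55 in the sexual libraries, but they went down to 5 in protoapothecia replicate 1 and to 3 in replicate 2. In protoapothecia 27 and 35 of the 100 genes had under 50 counts, so the lowest levels there are the least precise values in this description.

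The rule left few of the candidate genes. At 20 CPM or more in both vegetative libraries were 3698 genes, and 1223 of these had a lower sexual library at least 3 times the higher protoapothecia library. Among the 1223, the first step, the lower vegetative over the higher sexual library, was under 1.5 in 1060 genes, from 1.5 to under 3 in 126, and 3 or more in 37. Of the 126 genes, 26 were at or under the floor of 5% in protoapothecia, which left 100. A further 274 genes met the level and the first step but had a second step, the lower sexual over the higher protoapothecia library, under 3.

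**Figure D1:**
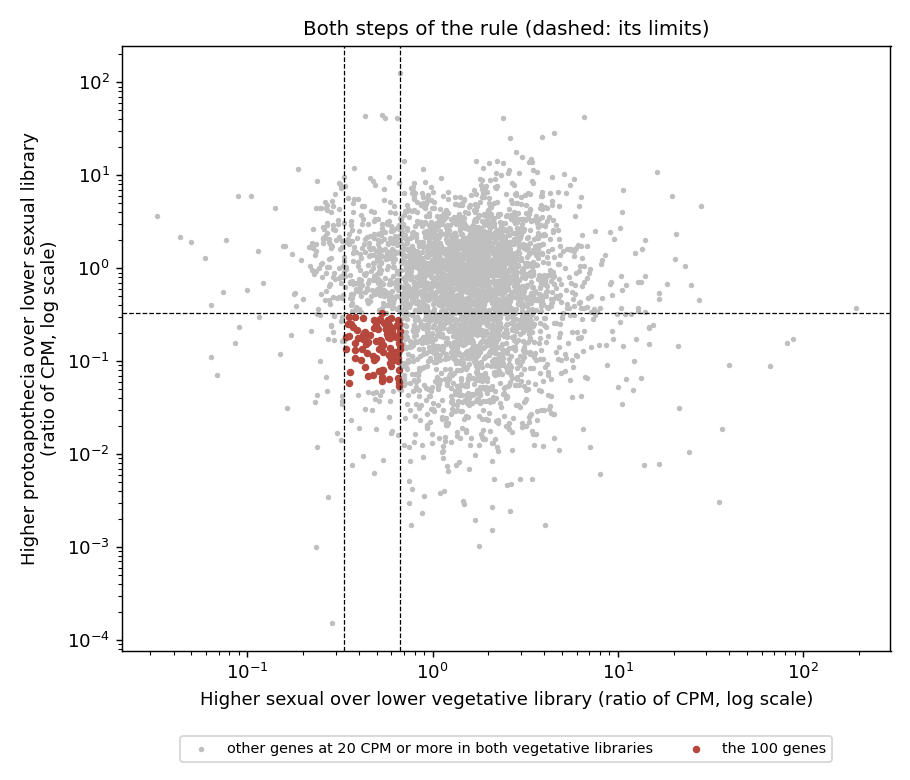
Each point is 1 of 3694 genes at 20 CPM or more in both vegetative libraries, with the ratio of the higher sexual to the lower vegetative library on the x axis and of the higher protoapothecia to the lower sexual library on the y axis, both on log scales. The 100 genes (red) fill the field between the dashed limits of the rule, grey points in that field are at or under the floor of 5%, and 4 genes at 0 counts in protoapothecia are not drawn.

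The median level of the 100 genes was 8.90 and 7.89 CPM in the protoapothecia libraries, 87.1 and 81.2 CPM in the sexual libraries, and 210.7 and 212.0 CPM in the vegetative libraries. The range over genes was wide in each tissue. It ran from 0.424 to 790.1 CPM and from 0.237 to 637.5 CPM in protoapothecia, from 8.20 to 7736 CPM and from 4.43 to 4000.2 CPM in sexual mycelium, and from 21.5 to 13652 CPM and from 23.5 to 21076 CPM in vegetative mycelium. The tissues therefore overlapped across genes, although by the rule they did not within any gene.

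In rank order of CPM the genes were among the more abundant ones in vegetative mycelium and in the middle of the list in protoapothecia. Their median rank among the 9622 gene models was 5425 and 5500.5 in protoapothecia, 1941.5 and 2339 in the sexual libraries, and 707.5 and 682.5 in the vegetative libraries. Of the 1000 most abundant genes of a library they made up 3 and 2 in protoapothecia, 32 and 23 in the sexual libraries, and 61 and 60 in the vegetative libraries. At 100 CPM or more stood 5 and 6 of them in protoapothecia, 43 and 44 in the sexual libraries, and 73 and 71 in the vegetative libraries.

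**Figure D2:**
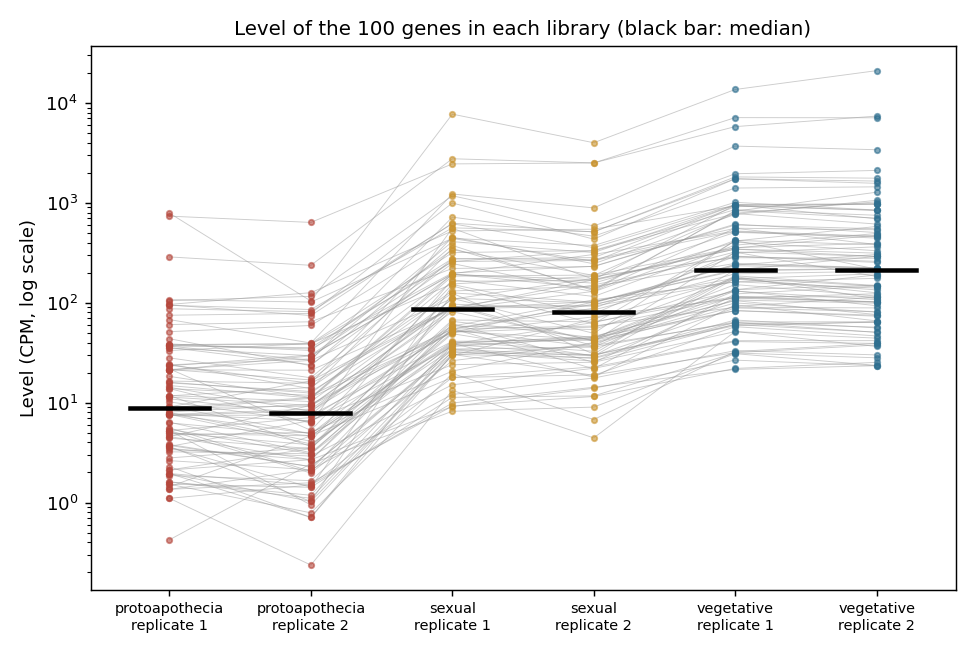
Level in CPM (y axis, log scale) of the 100 genes in each of the 6 libraries (x axis); each point is a gene, grey lines join the values of a gene, and black bars are medians. The medians lie at 8.90 and 7.89 CPM in protoapothecia, 87.1 and 81.2 CPM in the sexual libraries, and 210.7 and 212.0 CPM in the vegetative libraries.

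Together the 100 genes took 0.319% ± 0.0704 of all counts in protoapothecia, 2.60% ± 0.544 in sexual mycelium and 6.98% ± 0.542 in vegetative mycelium (SD, n = 2 each). By library the shares were 0.368% and 0.269% in protoapothecia, 2.99% and 2.22% in the sexual libraries, and 6.60% and 7.36% in the vegetative libraries. A single gene, proteinId343010, held much of this. It made up 21.4% and 3.87% of the counts of the 100 genes in protoapothecia, 25.9% and 18.0% in the sexual libraries, and 20.7% and 28.6% in the vegetative libraries. Without it the other 99 genes took 0.274% ± 0.0218 of all counts in protoapothecia, 2.02% ± 0.280 in sexual mycelium and 5.24% ± 0.0166 in vegetative mycelium (SD, n = 2 each).

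The levels were then set against the mean vegetative level of each gene. The median protoapothecia level was 4.67% of the vegetative one, with quartiles of 2.87% and 6.05% and a range of 0.50% to 12.9%. The median sexual level was 42.0% of the vegetative one, with quartiles of 33.8% and 49.2% and a range of 20.1% to 63.1%. Over the 3698 genes at the same vegetative minimum, the medians were 53.1% for protoapothecia and 126% for sexual mycelium.

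Between protoapothecia and sexual mycelium the median ratio was 11.6%, with quartiles of 7.60% and 15.5%, against 46.9% over the 3698 genes. The floor in the rule bounds this ratio from below, but the means of 2 libraries can pass it, and the lowest was 1.92%. Sexual mycelium was under 5-fold above protoapothecia in 8 genes, from 5-fold to under 10-fold in 52, and 10-fold or more above it in 40. Over both steps, vegetative mycelium was under 10-fold above protoapothecia in 7 genes, from 10-fold to under 20-fold in 38, from 20-fold to under 30-fold in 26, and 30-fold or more above it in 29.

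How the distance was divided between the steps depended on how the libraries were scaled. With library totals, the step from sexual mycelium to protoapothecia made up a median of 71.5% of the whole log distance between vegetative mycelium and protoapothecia, with a range of 54.9% to 86.3%. The limits of the rule, under 3 for the first step and at least 3 for the second, were set on these same levels and put the larger step there, so that all 100 genes share this is no finding. The other scalings tried correct the totals for a few abundant genes that take many of the counts. With TMM factors, a trimmed mean of log ratios between libraries, the median share of that step was 55.7% and it was the larger one in 79 genes. With relative log expression (RLE) size factors the share was 49.4% and the step was the larger one in 47 genes. Upper-quartile factors gave 58.4% and 90 genes. The order vegetative over sexual over protoapothecia, without overlap between libraries, held for all 100 genes under each of these 4 scalings. With library totals the rule itself sets this order. The other factors raise the first step, and they lower the second by less than its minimum of 3. The order was therefore certain from the choice of genes and adds no support.

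The scalings differed most in the sexual libraries, whose TMM factors were 1.32 and 1.41, whereas they were 0.895 and 0.872 in the protoapothecia and 0.840 and 0.819 in the vegetative libraries. Over all 8861 genes tested, the median fitted log2 fold change of sexual over vegetative mycelium was 1.14 with library totals, 0.42 with TMM, 0.40 with upper-quartile and 0.18 with RLE factors. That of protoapothecia over sexual mycelium was -0.78, -0.16, -0.46 and 0.15 in the same order of scalings.

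The steps were also set against the median of all tested genes. A scaling factor moves all genes alike, so this subtraction removes it by construction, and the values depend on the choice of the genes by the rule. With TMM factors, the median of the 100 genes was 2.33 log2 units below that of all tested genes for protoapothecia over sexual mycelium (-2.49 against -0.16) and 2.39 units below it for sexual over vegetative mycelium (-1.97 against 0.42). For protoapothecia over vegetative mycelium the medians were -4.51 in the 100 genes and 0.15 in all tested genes, a distance of 4.66 units. Gene by gene, relative to the median gene, the step from sexual mycelium to protoapothecia was the larger in 45 genes and the step from vegetative to sexual mycelium in 55.

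**Figure D3:**
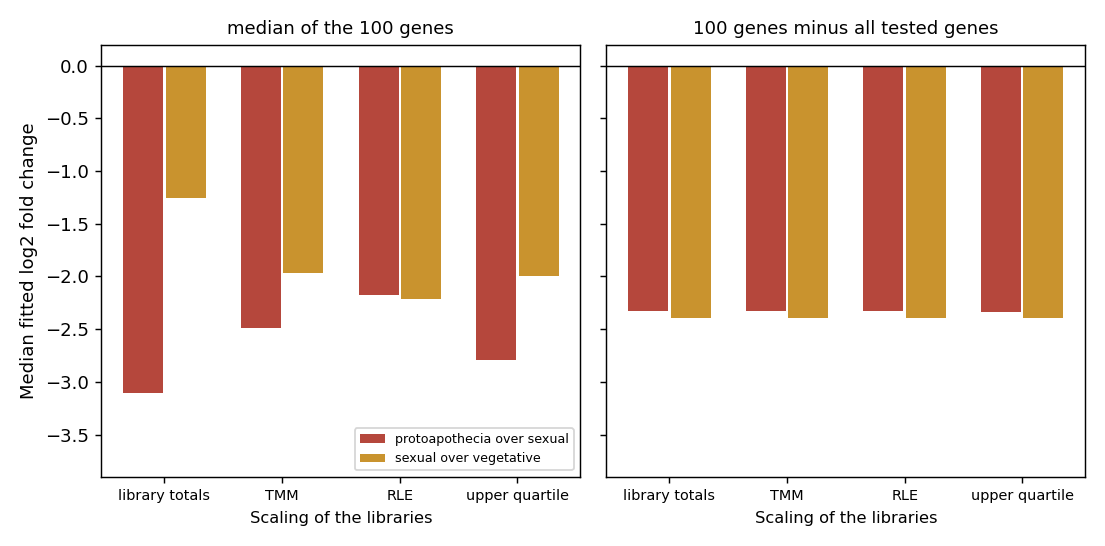
Median fitted log2 fold change (y axis) of the 100 genes for protoapothecia over sexual (red) and sexual over vegetative mycelium (yellow) under 4 scalings (x axis), as fitted on the left and after subtraction of the median of all 8861 tested genes on the right. On the left the medians run from -3.11 to -2.18 and from -1.25 to -2.21, whereas on the right they are near -2.33 and -2.39 under each scaling, because the subtraction cancels any factor common to all genes.

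The thresholds act on the same ratios, so the choice of genes moved with the scaling too. Applied to TMM-scaled levels the rule chose 182 genes, of which 37 were among the 100. With RLE factors it also chose 182, of which 8 were among the 100, and with upper-quartile factors 215, of which 40 were. With TMM factors, 52 of the 100 genes had a first step of 3 or more and 28 had a second step under 3. The members given here are those of the rule on library totals.

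The genes were next fitted with edgeR's quasi-likelihood test on all 6 libraries, in which a gene was called at a Benjamini-Hochberg adjusted p under 0.05. All 100 genes passed the low-count filter, which was certain from the rule's minimum of 20 CPM in both vegetative libraries. In protoapothecia against sexual mycelium 100 of the 100 were called lower, where 36.9% of all tested genes were. In protoapothecia against vegetative mycelium 100 were called lower, where 35.3% of all tested genes were, and in sexual against vegetative mycelium 99 were, where 14.8% of all tested genes were. The rule had fixed these directions, so the counts add no support.

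The gene that was not called in sexual against vegetative mycelium was the most abundant of the group, proteinId343010, with a fitted log2 fold change of -2.27 (edgeR adjusted p = 0.0705). Its mRNA model has 781 bases. It was at 790.1 and 104.0 CPM in protoapothecia, 7736 and 4000.2 CPM in the sexual libraries, and 13652 and 21076 CPM in the vegetative libraries. In both vegetative libraries it ranked second of all gene models. By the rule its libraries could not overlap between tissues, but its protoapothecia replicates were 7.59-fold apart, the widest of the 100 genes.

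Levels were compared between genes per kilobase of mRNA. Per kilobase, proteinId343010 averaged 572 ± 621 CPM in protoapothecia, 7514 ± 3383 CPM in sexual mycelium and 22233 ± 6721 CPM in vegetative mycelium (SD, n = 2 each). The next gene in vegetative mycelium, proteinId373746 (1011 bases), was at 260 ± 35.4 CPM per kilobase in protoapothecia, 2610 ± 176 in sexual and 6527 ± 1117 in vegetative mycelium (SD, n = 2 each). Only proteinId343010 stood apart in vegetative mycelium, since proteinId373746 was followed by means of 4123, 3733 and 3661 CPM per kilobase. The upper quartile of the group there was 505 and 457 CPM per kilobase in the 2 libraries.

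The third, proteinId323262 (1728 bases), had the highest mean CPM in protoapothecia of all 100 genes, whereas per kilobase it was at 398 there, below the 572 of proteinId343010. It was at 736 and 637 CPM in protoapothecia, 2456 and 2510 CPM in the sexual libraries, and 7138 and 7112 CPM in the vegetative libraries. Its replicates were close in each tissue, and its protoapothecia level was 27.7% of the sexual and 9.64% of the vegetative one. In contrast, proteinId339776 (952 bases) had 67.8 and 39.5 CPM in protoapothecia, 1228 and 891 CPM in the sexual libraries, and 3702 and 3406 CPM in the vegetative libraries. Its protoapothecia level was 1.51% of the vegetative one. Per kilobase, proteinId339776 averaged 56.4 ± 21.0 CPM in protoapothecia and 3733 ± 219 CPM in vegetative mycelium, against 398 ± 40.5 CPM and 4123 ± 10.6 CPM for proteinId323262 (SD, n = 2 each).

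The short gene proteinId372117 (390 bases) was at 36.8 and 26.6 CPM in protoapothecia, 720 and 464 CPM in the sexual libraries, and 1408 and 1447 CPM in the vegetative libraries. Values of proteinId119135 (787 bases) were 105 and 116 CPM in protoapothecia, 1177 and 587 CPM in the sexual libraries, and 1957 and 2113 CPM in the vegetative libraries. For both genes the sexual libraries were the more variable pair, at ratios of 1.55 and 2.00. Similar levels in each tissue were found for proteinId217923 (729 bases) and proteinId337015 (755 bases). The rule bounds both steps in every gene, so a like profile is favoured by the choice of genes. Of these, proteinId217923 stood at 95.2 and 74.5 CPM in protoapothecia, 625 and 513 CPM in the sexual libraries, and 1820 and 1767 CPM in the vegetative libraries, and proteinId337015 at 94.3 and 85.6 CPM, 563 and 514 CPM, and 1743 and 1653 CPM in the same tissues.

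**Figure D4:**
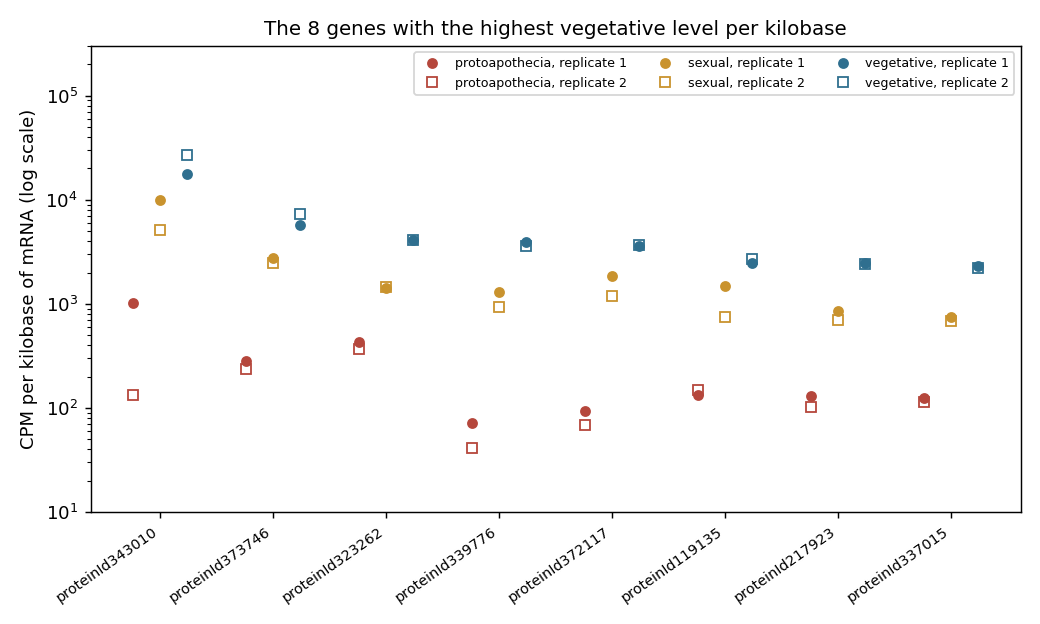
CPM per kilobase of mRNA (y axis, log scale) of the 8 genes with the highest vegetative level per kilobase (x axis), in protoapothecia (red), sexual mycelium (yellow) and vegetative mycelium (blue); filled circles are replicate 1 and open squares replicate 2. The rule itself keeps the libraries of the 3 tissues from overlapping in each of the 8 genes. The protoapothecia replicates of proteinId343010 lie farthest apart.

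At the steep end of the group, 4 genes had the lowest protoapothecia level relative to the vegetative one. The lowest was proteinId341157 (1288 bases), with 3.56 and 1.42 CPM in protoapothecia, 147 and 61.5 CPM in the sexual libraries, and 416 and 581 CPM in the vegetative libraries. Its protoapothecia level was 0.50% of the vegetative one and rested on 42 and 18 counts. Likewise proteinId197198 (1180 bases) had 1.95 and 1.03 CPM in protoapothecia, 125 and 30.6 CPM in the sexual libraries, and 214 and 291 CPM in the vegetative libraries, or 0.589% of the vegetative level.

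The other 2 steep genes were proteinId306705 (1308 bases), at 1.12% of its vegetative level in protoapothecia, and proteinId399355 (512 bases), at 1.39%. The first had 13.8 and 6.23 CPM in protoapothecia, 557 and 171 CPM in the sexual libraries, and 954 and 841 CPM in the vegetative libraries. The second had 7.97 and 4.10 CPM in protoapothecia, 170 and 116 CPM in the sexual libraries, and 378 and 493 CPM in the vegetative libraries. In all 4 genes replicate 1 was the higher library in protoapothecia and in sexual mycelium, and in 3 of them the sexual libraries were over 2-fold apart.

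At the shallow end stood proteinId67193 (2602 bases), with 33.2 and 39.0 CPM in protoapothecia, 154 and 184 CPM in the sexual libraries, and 283 and 279 CPM in the vegetative libraries. Its protoapothecia level was 12.9% of the vegetative one, the highest share of the 100 genes. Close to it, proteinId342090 (1878 bases) had 96.2 and 126 CPM in protoapothecia, 523 and 546 CPM in the sexual libraries, and 932 and 843 CPM in the vegetative libraries, or 12.5%. In proteinId338026 (548 bases) and proteinId357793 (723 bases) the share was 11.2% and 10.9%. Replicates of these 4 genes were at most 1.31-fold apart in protoapothecia.

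The step between vegetative and sexual mycelium was deepest in proteinId399464 (1451 bases), whose sexual level was 20.1% of the vegetative one. It had 1.10 and 0.237 CPM in protoapothecia, 13.3 and 4.43 CPM in the sexual libraries, and 51.6 and 36.5 CPM in the vegetative libraries. Its protoapothecia values, 13 and 3 counts, gave the only mean under 1 CPM in the group. After it came proteinId341157 at 21.0% and proteinId344878 (1880 bases) at 23.0%. In proteinId344878 the libraries stood at 11.8 and 3.63 CPM in protoapothecia, 86.4 and 130 CPM in the sexual libraries, and 557 and 383 CPM in the vegetative libraries.

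That step was smallest in proteinId354687 (2880 bases), whose sexual level was 63.1% of the vegetative one. Its replicates hardly differed, at 3.22 and 3.08 CPM in protoapothecia, 54.4 and 58.5 CPM in the sexual libraries, and 90.2 and 88.8 CPM in the vegetative libraries. Similar shares were found for proteinId330942 (573 bases) at 60.5% and proteinId67193 at 60.3%. These genes differed in the other step: protoapothecia were at 5.58% of the sexual level in proteinId354687, 4.25% in proteinId330942 and 21.4% in proteinId67193.

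Across the 100 genes the size of one step said little about the size of the other, with a Pearson correlation of 0.17 between the log2 ratios (Spearman 0.11). Both ratios contain the sexual level, and the rule bounds both, so this is a description only. The log2 levels of protoapothecia and vegetative mycelium had a Pearson correlation of 0.90 (Spearman 0.88) over the 100 genes, which share all 6 libraries. The rule bounds both steps within each gene, so the choice of genes favours a high correlation. The protoapothecia share of the vegetative level, bounded in the same way, varied little with abundance, which is a description only. Its median was 5.27% in the 27 genes with a mean vegetative level under 100 CPM, 4.52% in the 63 genes from 100 to under 1000 CPM, and 4.30% in the 10 genes at 1000 CPM or more. The sexual share was 47.2%, 40.6% and 34.3% in the same classes.

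Replicates differed most in protoapothecia and sexual mycelium. The median ratio of the higher to the lower replicate over the 100 genes was 1.31 in protoapothecia, 1.28 in sexual mycelium and 1.14 in vegetative mycelium. Over the genes at the same vegetative minimum it was 1.24, 1.26 and 1.13. Replicates over 2-fold apart were found for 16 of the 100 genes in protoapothecia, 17 in sexual mycelium and 0 in vegetative mycelium. Of the 3698 genes, 9.22% and 8.92% were over 2-fold apart in protoapothecia and sexual mycelium, and the vegetative share was not counted. The median protoapothecia level was 43.5 and 42.6 CPM over the 3698 genes, against 8.90 and 7.89 CPM in the 100 genes. Whether lower counts widen the replicates of the 100 genes was not tested. The rule compares the lower or the higher library of each tissue, so it also acts on the distance between replicates. The values beside the 3698 genes are therefore a description only.

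Of the 17 genes with sexual libraries over 2-fold apart, replicate 1 was the higher in 15. In 13 of these 15 it was also the higher in protoapothecia. Over all 100 genes replicate 1 was the higher in 67 in protoapothecia, 52 in sexual mycelium and 65 in vegetative mycelium. How often replicate 1 was the higher over all 3698 genes was not counted in any tissue. Over the 100 genes the log2 replicate ratios of protoapothecia and sexual mycelium had a Pearson correlation of 0.281, a description only, against 0.0363 over the 8861 tested genes. Over the 3698 genes, sexual replicate 1 was the higher in 174 of 330 such genes, or 52.7%. The widest sexual pair was that of proteinId197198, at a ratio of 4.06. In vegetative mycelium the widest pair was that of proteinId228160 (3954 bases), which had 10.9 and 7.57 CPM in protoapothecia, 111 and 49.4 CPM in the sexual libraries, and 420 and 217 CPM in the vegetative libraries.

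**Figure D5:**
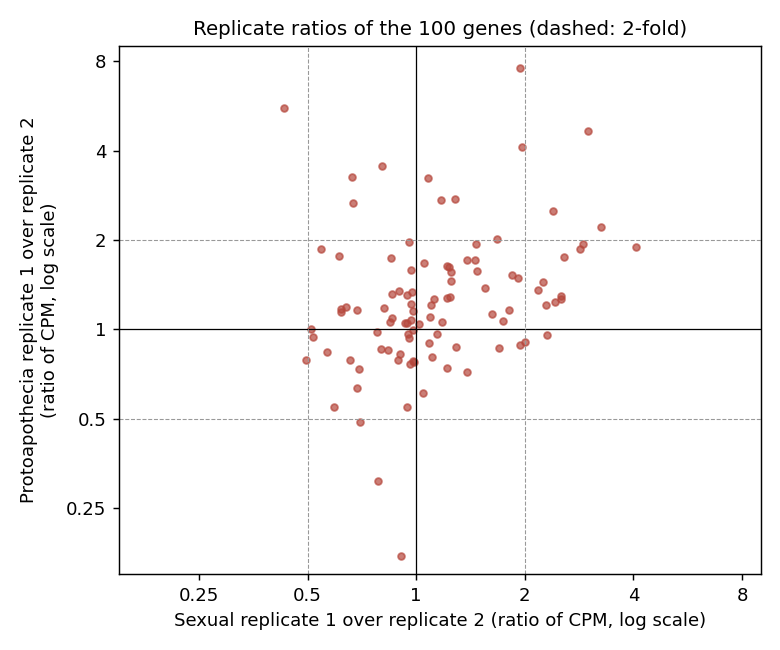
Ratio of replicate 1 to replicate 2 in sexual mycelium (x axis) and in protoapothecia (y axis) for the 100 genes, both on log scales, with dashed lines at 2-fold. Most of the points beyond 2-fold on the x axis lie on the right, where replicate 1 is the higher (15 of 17 genes).

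Transcript length was not part of the rule, although a minimum in CPM favours long transcripts. The median mRNA length of the 100 genes was 1309.5 bases (quartiles 805 and 1857), against 1469 bases (quartiles 1001 and 2088) over the 3698 genes at the same minimum and 1230 bases over all gene models. The 95% interval of the median from the binomial distribution of ranks was 1180 to 1524 bases. It treats the 100 chosen genes as a random draw, which they are not, and the 3698 genes include them. It therefore cannot decide whether the lengths differ. Under 1000 bases were 33 of the 100 genes. Models under 500 bases made up 7 of the 100 genes and 4.35% of the 3698. Those from 500 to under 1000 bases made up 26 of the 100 genes and 20.6% of the 3698. The 900 genes that met every clause but had a first step under 1.5 had a median of 1521 bases, and the 24 with a first step of 3 or more had a median of 1088 bases.

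The genes at the extremes of length have the falling profile by the rule, so that they share it is no finding. The shortest model, proteinId298779 with 174 bases, had 1.61 and 1.10 CPM in protoapothecia, 32.6 and 26.0 CPM in the sexual libraries, and 60.8 and 63.7 CPM in the vegetative libraries. The second shortest, proteinId303572 with 255 bases, had 1.87 and 1.66 CPM in protoapothecia, 30.5 and 18.8 CPM in the sexual libraries, and 57.7 and 46.6 CPM in the vegetative libraries. The longest, proteinId367673 with 6729 bases, had 5.26 and 7.10 CPM in protoapothecia, 52.0 and 42.7 CPM in the sexual libraries, and 107 and 98.9 CPM in the vegetative libraries. Protoapothecia thus stood at 2.18%, 3.38% and 6.01% of the vegetative level in these genes. Over the 100 genes, length and the log2 ratio of protoapothecia over vegetative mycelium had a Pearson correlation of 0.031 (Spearman -0.039).

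The genes next to each limit of the rule were as follows. The lower vegetative library of proteinId180708 was at 21.5 CPM, and that of proteinId355401, outside, at 13.2 CPM, so no gene that met the other clauses lay just under this limit. The first step was 1.501 in proteinId393691 and 1.496 in proteinId347138, which was outside. At the upper end it was 2.95 in proteinId344878 and 3.02 in proteinId341508, outside. The second step was 3.02 in proteinId339870 and 2.997 in proteinId362064, outside, and the floor was passed at 5.40% by proteinId330942 and missed at 4.99% by proteinId371996.

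The authors' deposited table holds linear ratios for the same contrasts by DESeq, by LOX and by a "classic" analysis, which no source used here explains. For protoapothecia over vegetative mycelium the 100 genes have a median ratio of 0.05 by all 3 analyses in the authors' deposited table. For sexual over vegetative mycelium the authors' deposited table gives medians of 0.22 by DESeq, 0.415 by LOX and 0.425 by "classic". The medians of protoapothecia over sexual mycelium in the authors' deposited table are 0.225, 0.12 and 0.12 in the same order of analyses. The medians of both steps are thus close by DESeq, although the steps of single genes differ. By LOX and "classic" the median step to protoapothecia is the larger. All of these ratios are under 1 for each of the 100 genes in the authors' deposited table. They belong to the same 6 libraries whose counts chose the genes. Neither their direction nor the larger step to protoapothecia is therefore independent support.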

How the data were processed

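RNA sequencing counts of 6 libraries, 2 from each of 3 tissues, were analysed. The authors deposited whole-number raw counts for 9622 gene models with mRNA lengths, per the file headers. The deposited table also holds the authors' ratios by DESeq, LOX and "classic" and DESeq adjusted p-values, per the file headers; the p-values were not used. DESeq is named in the submitters' processing notes. Aligner, counting tool, strand setting, annotation and genome build were each not given in the sources used here, so reads shared by near-identical or overlapping genes are uncertain. Count columns were assigned by the sample titles in their names.

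The 100 genes were chosen on CPM of library totals, and members, lists and tests were chosen with earlier results of these data known. Counts were fitted with edgeR 4.0.16 (limma 3.58.1, R 4.3.3): filterByExpr (8861 genes kept), TMM factors, robust quasi-likelihood fit of 3 groups, no replicate term, two-sided tests adjusted over all tested genes by the Benjamini-Hochberg method. Alternatives used DESeq2 1.42.0, other factors, no filter, a replicate block, leaving out each library, and minimums of 10 and 40 CPM. On simulated counts for protoapothecia against vegetative mycelium (8807 genes, 200 changed) the test recovered 13.4% of 2-fold, 88.1% of 4-fold and 100% of 8-fold changes. It made 5 false calls. The simulation gave every gene the same dispersion, and equal mean levels in all tissues apart from the changed genes. In the measured counts far more genes differ, so these shares are not the sensitivity in these data. Replicates were no duplicates: chi-square per degree of freedom was 100.8 in protoapothecia, 248 in sexual and 42.0 in vegetative mycelium. With 2 libraries per tissue, SDs are imprecise; the RNA was amplified, so reads are not independent molecules and count-based precision is overstated.

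Genes named were, among the 100, the 8 highest per kilobase in vegetative mycelium, the 4 lowest and 4 highest ratios of protoapothecia over vegetative mycelium, the 3 lowest and 3 highest of sexual over vegetative mycelium, the gene with the widest replicates in each tissue, the 2 shortest and 2 longest, and those next to each threshold. Figures were drawn with matplotlib 3.10.9.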

Additional observations from a re-analysis of the deposited data

How the results depend on the processing

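The number of genes chosen by the rule was 182 with TMM, 182 with RLE and 215 with upper-quartile factors, against 100 with library totals. Leaving out 1 library gave 105 to 155 genes, the highest without sexual replicate 2 (155, of which 83 were among the 100), and minimums of 10 and 40 CPM gave 102 and 90. The median log2 ratio of protoapothecia over sexual mycelium in the 100 genes was -3.11, and -2.49, -2.18 and -2.79 with TMM, RLE and upper-quartile factors. That of sexual over vegetative mycelium was -1.25, and -1.97, -2.21 and -1.99. For protoapothecia over vegetative mycelium it was -4.42, and -4.83 with upper-quartile factors. Leaving out 1 library gave -3.19 to -3.05, -1.32 to -1.20 and -4.60 to -4.33. The share of the log distance in the step to protoapothecia was 71.5%, and 55.7%, 49.4% and 58.4% with TMM, RLE and upper-quartile factors, and 70.1% to 73.1% without 1 library; it was added after the data were seen. The share of all counts without the most abundant gene was 2.02% in sexual and 5.24% in vegetative mycelium.

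Genes called over the whole table kept within 1.5 times in all alternatives for protoapothecia against sexual and against vegetative mycelium. In sexual against vegetative mycelium, leaving out 1 library gave 2129 to 4276 calls against 4033, the lowest without vegetative replicate 1, where 83 of the 100 genes were called lower, and the next 2421 without vegetative replicate 2, where 88 were; a lone library is assumed to vary like the other groups, and the cause was not tested. Library totals alone gave 88 of the 100 genes. Higher genes were 67.5% of these calls with TMM, 57.5% with RLE, 66.4% with upper-quartile factors and 88.3% with library totals, and for protoapothecia against sexual mycelium 45.4%, 53.1%, 38.5% and 30.9%. The labels do not say whether equal replicate numbers pair the libraries, and 1 replicate difference per tissue cannot decide it. Correlations of these differences between tissues over 8861 genes were 0.0363 (protoapothecia and sexual), -0.0295 (protoapothecia and vegetative) and -0.158 (sexual and vegetative). Over the 100 genes they were 0.281, -0.177 and -0.129. With a replicate block 5698, 6472 and 3696 genes were called, against 5985, 6657 and 4033, and 100, 100 and 99 of the 100 genes. No log2 ratio of a named gene changed sign in 567 recomputed values, of which 144 moved by more than the spread between replicates. By the rule the tissues do not overlap within any of these genes, so leaving out a library cannot change a sign. The scaling factors differ too little between tissues to undo the steps the rule requires. That no sign changed was therefore certain and adds no support.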
